A study of Mus musculus with 12 samples.

Results

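The genes described here were the core of the TGF-beta pathway: the ligand genes Tgfb1, Tgfb2 and Tgfb3, the receptor genes Tgfbr1 and Tgfbr2, and the SMAD genes Smad2, Smad3, Smad4, Smad6 and Smad7. They were chosen by name and made up 10 of the 14988 genes on which the deposited lists called an m6A peak. A peak was taken for a gene when the authors' annotation assigned it to the gene or when it had been called on the gene's identifier. This gave 30 of the 27292 peaks in the OVA group and 31 of the 26102 peaks in the PBS group.

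TGF-beta ligands are secreted in a latent form, and after release they join a type II and a type I receptor at the cell surface. The activated type I receptor phosphorylates the receptor SMADs, which enter the nucleus with SMAD4 and alter transcription, while the inhibitory SMADs act as feedback brakes on this route. In the airways the pathway is known for its part in fibrosis, smooth muscle growth and the restraint of immune responses. m6A is a methylation of adenosine in RNA that is often dense near stop codons and in the 3' UTR, and it is known to affect the stability, splicing and translation of transcripts.

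All mice were female BALB/c of 6 to 8 weeks, and the labels name no genetic change. The OVA group was sensitized by intraperitoneal injections on days 0 and 7, each of 0.2 ml with ovalbumin at 20 µg/ml and alum at 2 mg/ml, and then breathed an aerosol of 3% ovalbumin for 30 min daily on days 14 to 20. The PBS group received PBS by the same routes, without ovalbumin and without alum, so that allergen and adjuvant cannot be told apart. Lungs were taken on day 21, after the provocation of the bronchi with methacholine that the methods describe for the mice of both groups. Lung RNA of 3 mice per group, depleted of ribosomal RNA, gave an immunoprecipitated (IP) library of fragments bound by an m6A antibody and an input library for each mouse, or 12 libraries in all.

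The peak lists analysed here, 1 per group, held no values of single mice, so a difference between them has no replicate check here and no test between the groups was made. Each peak had a fold enrichment, the ratio between IP and input signal over the peak, and a log10 p of that enrichment within its own group. The lists gave no read counts, so the depth behind a peak is unknown and a fold enrichment has no interval. The median fold enrichment was 5.59 in OVA lungs, with quartiles of 2.91 and 11.4. It was 5.44 in PBS lungs, with quartiles of 2.86 and 10.9. Since whole lung was used, fewer cells of a type and less RNA per cell cannot be told apart, and the absence of a peak does not show the absence of the RNA.

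The lung label was checked against marker genes with a called peak. Of 10 markers of lung epithelium, 9 carried a peak in each list, and Sftpc, which encodes a surfactant protein, carried none. Endothelial markers carried a peak in 4 of 4 cases in both lists, and markers of fibroblasts and smooth muscle in 4 of 5, where Acta2 was the exception. Of 6 leukocyte markers, 3 carried a peak in each list, and Cd68, Cd79a and Siglecf carried none. The goblet cell markers Muc5ac and Muc5b had peaks in both lists, with highest fold enrichments of 10 and 7.33 in OVA lungs and of 20.7 and 10.9 in PBS lungs. Clca1, another gene of mucus-producing cells, had 1 peak with a fold enrichment of 3.55 in OVA lungs alone. Of 7 markers of tissues beside the lung, the thyroid gene Tg had 2 peaks in OVA lungs alone. The heart genes Myh6 and Tnnt2 had 2 peaks and 1 peak in PBS lungs alone. The part of these cell types in the results below was not tested.

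All 10 genes carried at least 1 called peak in each list. Of 21900 genes that RefSeq lists as protein-coding, 52% had a called peak in OVA lungs and 50.5% in PBS lungs. These shares take in all such genes, whether or not they are expressed in lung. None of the 10 was found in a single list. All 30 OVA and 31 PBS peaks had an FDR under 0.05, as did 98.1% of all OVA peaks and 97.8% of all PBS peaks. Among 12011 protein-coding genes with a called peak in either list, 7.87% had it only in OVA lungs and 5.2% only in PBS lungs. By exonic overlap of at least 1 bp, 26 of the 30 OVA peaks met a PBS peak (86.7%, 95% Wilson interval 70.3% to 94.7%), against 80.6% of all OVA peaks. From the other side, 28 of the 31 PBS peaks met an OVA peak (90.3%, 75.1% to 96.7%), against 85.5% of all PBS peaks. Both backgrounds lay inside the intervals, which cover counting error only. Called peaks per gene ranged from 1 for Tgfbr1 to 4. Smad7 had 4 in each list, Tgfb1 had 4 in OVA lungs alone, and Tgfb2 and Tgfb3 had 4 in PBS lungs alone. At least 4 were found on 10.7% of all called genes in OVA lungs and on 10.9% in PBS lungs. The median fold enrichment of the peaks was 6.7 in OVA lungs and 5.47 in PBS lungs, but the order turned with only the peaks assigned to protein-coding transcripts, at 6.21 and 6.29. That filter goes by the assigned transcript. It drops some peaks called on the 10 genes and keeps the peaks called on the neighbours B9d2 and Dym.

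Most of the paired peaks had similar enrichment in the groups. The ratio of the OVA to the PBS fold enrichment was taken for each OVA peak and the PBS peak with the largest overlap. Its median was 1.12 over the 26 pairs of these genes and 1.08 over all 22009 pairs. A ratio of at least 2 in favour of the OVA list was found for 2 of the 26 pairs, against 7.63% of all pairs, and in favour of the PBS list for 0 of 26, against 6.8%. Both OVA-higher pairs lay at the 5' end of Tgfb3, and 22 of the 26 pairs were within 1.5 times of each other, as were 69.2% of all pairs. The count of such pairs was thus near the background, and the Tgfb3 values are given as a description of that locus.

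The position of the peaks along the transcripts was compared with that of the lists as a whole. The 5' UTR held 12 of the 30 OVA peaks (40%, 95% Wilson interval 24.6% to 57.7%), against 11.6% of all OVA peaks. In PBS lungs it held 11 of 31 (35.5%, 21.1% to 53.1%), against 11.4%. Both intervals lay above the share of all peaks, but they treat each peak as a separate draw. The shares of all peaks also take in peaks assigned to non-coding transcripts. Of the peaks of the 10 genes, 19 of 30 in OVA lungs and 20 of 31 in PBS lungs were assigned to protein-coding transcripts. The 5' UTR share of all peaks on protein-coding transcripts is not given here, so this contrast has no background matched for transcript type. The 3' UTR held 15 peaks in each list, or 50% and 48.4%, against 52.7% of all peaks in both lists, and 2 of the 15 in each list were called on the neighbouring genes B9d2 and Dym described below. With only the peaks assigned to protein-coding transcripts, the 3' UTR shares of the 10 genes were 31.6% and 35%, against 51.8% and 51.4% of all such peaks. This filter goes by the assigned transcript, not by the called gene. It leaves out 3' UTR peaks called on Tgfb2, Tgfbr2, Smad2, Smad4, Smad6 and Smad7 in both lists. It keeps the peaks called on B9d2 and Dym. The lower shares thus do not show that the 10 genes have few 3' UTR peaks. Other exons held 3 OVA and 5 PBS peaks, or 10% and 16.1%, while 35.7% and 35.9% of all peaks lay there. Peaks of 1 gene share their transcripts, so these shares describe 10 genes and are not a test. The genes with a 5' UTR peak in both lists were Tgfb1, Tgfb2, Tgfb3, Smad2, Smad3, Smad4, Smad6 and Smad7, and the receptor genes had none.

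Among the ligands, Tgfb3 had the largest difference between the lists, while the main peaks of Tgfb1 and Tgfb2 were similar. Tgfb1 encodes the ligand that is made by many immune and epithelial cells and is best known for fibrosis and immune restraint. Its strongest peak by p lay in the 5' UTR, at chr7:25687150-25687867 in OVA lungs with a fold enrichment of 6.18 and a log10 p of -741. The PBS peak there, chr7:25687120-25687957, had a fold enrichment of 7.1 and a log10 p of -414. A short exon peak that began at 25690366 had higher fold enrichments with far weaker evidence. Its fold enrichment was 15.9 in OVA lungs at a log10 p of -4.51 and 16.8 in PBS lungs at a log10 p of -4.83. A high fold enrichment with a log10 p above -5 was found for 3.21% of all OVA peaks and 3.35% of all PBS peaks, where high means at least 10.

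Tgfb1 also had weak peaks in a single list. The OVA list alone had peaks at chr7:25688934-25689024, with a fold enrichment of 2.6, and at chr7:25705016-25705077, the last 62 bp of the gene, with 3.3. The PBS list alone had a peak at chr7:25691260-25691411, with a fold enrichment of 3.7. None of these had a log10 p below -7.34. Peaks without a partner were of this weak kind across the whole data, with a median log10 p of -4.2 in OVA lungs and -3.58 in PBS lungs, against -42.2 and -33.4 for peaks with a partner. A further peak in both lists, chr7:25686142-25686558, was assigned to Tgfb1 by its nearest transcript start at -444 bp but had been called on the neighbour B9d2, a gene for a protein of the primary cilium. Its fold enrichments of 15.6 and 15 belong to B9d2, inside whose RefSeq position it lies.

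Tgfb2 encodes a ligand known for its roles in the development of the heart and lung and in airway remodelling. Its main peak lay in the 3' UTR, at chr1:186624522-186625538 in OVA lungs with a fold enrichment of 15.1 and a log10 p of -298. The PBS peak, chr1:186624492-186625538, had a fold enrichment of 18 and a log10 p of -626. Nearer to the transcript end, the OVA peak chr1:186622851-186622941 had a fold enrichment of 7.19 and the PBS peak chr1:186622881-186623001 had 3.88. This ratio of 1.85 rests on weak peaks, with log10 p of -2.38 and -4.13. The 5' region of Tgfb2 had peaks in both lists that did not touch. The OVA peak chr1:186705839-186705989, with a fold enrichment of 3.59, and the PBS peak chr1:186705302-186705720, with 2.75, were separated by 118 bp. The PBS list had 1 more peak here, chr1:186704496-186704616, with a fold enrichment of 1.68, the lowest of all peaks on the 10 genes.

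Tgfb3 encodes the ligand known for palate fusion and for wound repair with little scarring. In OVA lungs a peak of 1409 bp, chr12:86077633-86079041, ran up to the start of the gene in the 5' UTR. Its fold enrichment was 64.3, rank 86 of the 27292 OVA peaks. In PBS lungs the same stretch held separate peaks, chr12:86077633-86078472 with a fold enrichment of 7.9 and chr12:86078741-86079041 with 11.6. The ratio to the PBS peak with the largest overlap was 8.14 (log2 3.02), rank 38 among the 22009 pairs, and the OVA value was also above that of the other PBS peak. The log10 p did not follow the fold enrichment, with -99 for the OVA peak and -101 and -73.4 for the PBS peaks.

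Some of the same bases entered a further peak, which was called on the overlapping gene Gm48008 and assigned to Tgfb3. In OVA lungs it ran from 86078701 to 86079522 in 3 exonic blocks, with a fold enrichment of 72.6. In PBS lungs it ran from 86078730 to 86079493, with a fold enrichment of 11.2, which gave a ratio of 6.48 (log2 2.70). The block nearest to Tgfb3, from 86078701 to 86078900 in OVA lungs, lay wholly inside the Tgfb3 peak. The blocks from 86079155 to 86079279 and from 86079468 to 86079522 lay beyond the end of Tgfb3 at 86079041. The library kit marked the strand by dUTP, but whether the counting used it is not given in the sources used here. Reads of Tgfb3 and Gm48008 in the shared block thus cannot be told apart. The OVA values of the 2 ratios share these bases, so the ratios are not wholly separate observations.

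Peak width moved with the ratio in these data. The Tgfb3 peak of the OVA list was 1.68 times as wide in exonic bases as its PBS partner. Among the 2830 pairs in which the OVA peak was at least 1.5 times as wide, 20.2% had a ratio of at least 2, and where the PBS peak was the wider by as much, 5.2% did. The Gm48008 peaks differed less in width, by 1.18 times. The part of peak width in the Tgfb3 ratio was not tested. In the 3' UTR of Tgfb3 the OVA list again had 1 wide peak, chr12:86056864-86057852, with a fold enrichment of 4.4, where the PBS list had 2. Those PBS peaks, chr12:86056834-86057284 and chr12:86057462-86057793, had fold enrichments of 2.47 and 3.69. The ratio was 1.78 to the PBS peak with the larger overlap.

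**Figure D1:**
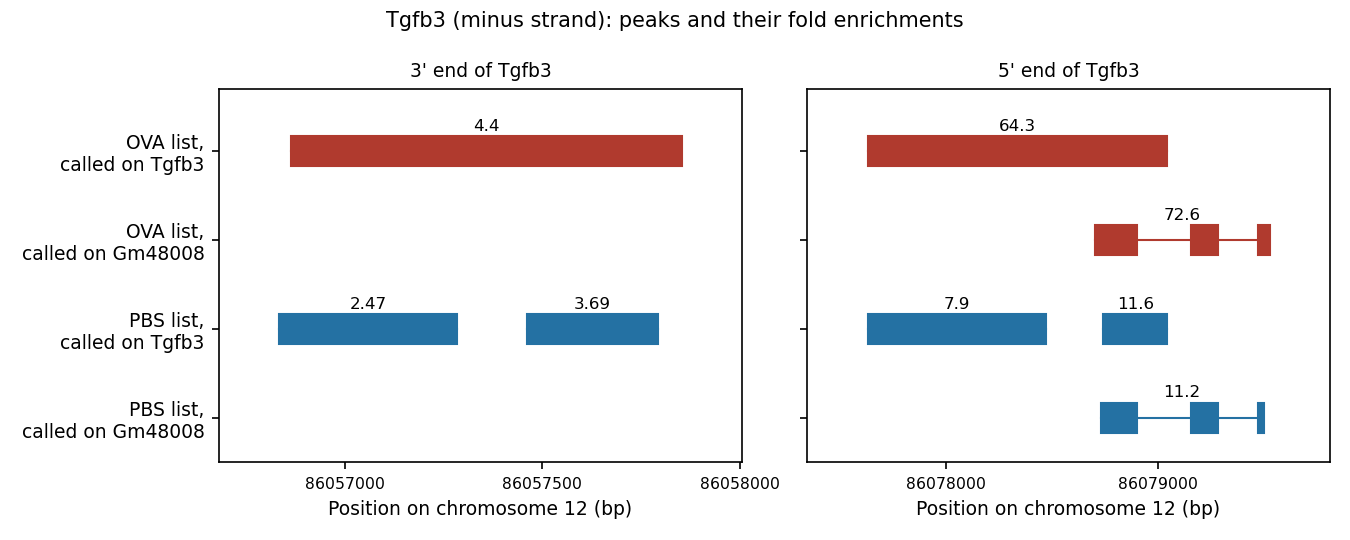
Peaks at both ends of Tgfb3 on chromosome 12 (horizontal axes, position in bp on GRCm38), by list and by the called gene. Boxes are exonic blocks drawn to scale and numbers are fold enrichments. At the 5' end the OVA peaks have 64.3 and 72.6, and the PBS peaks have 7.9, 11.6 and 11.2.

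The receptor genes had few peaks, all paired between the lists and none in the 5' UTR. Tgfbr1 encodes the type I receptor, the kinase that phosphorylates SMAD2 and SMAD3. It carried 1 peak with the same ends in both lists, chr4:47410675-47410885 in the 3' UTR. The fold enrichment was 3.89 in OVA lungs and 2.86 in PBS lungs, both below the list medians. Tgfbr2 encodes the type II receptor, which binds the ligand and activates the type I receptor, and its 3' UTR peak was far stronger. That peak, chr9:116089869-116093038 in OVA lungs, had a fold enrichment of 21 and a log10 p of -5320, rank 64 by p among all OVA peaks. The PBS peak, chr9:116089899-116093038, had a fold enrichment of 19.9 and a log10 p of -4570, rank 71 by p. This peak was called on Tgfbr2, but the annotation assigned it to the pseudogene Gm9385, at a distance of -51974 bp from its start, so a search by assigned name alone would miss it. The other Tgfbr2 peak lay in an exon, chr9:116109625-116110106 in OVA lungs, with fold enrichments of 4.65 and 3.78, also below the list medians.

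The receptor SMADs carry the signal from the receptors to the nucleus. Smad2 had its main peak in the 3' UTR in 2 exonic blocks, chr18:76302585-76305180 in OVA lungs. The fold enrichments were 7.98 in OVA lungs and 7.77 in PBS lungs, and this peak too was assigned to a pseudogene, Gm50360. A 5' UTR peak of Smad2 that began at 76262451 had lower fold enrichments of 2.23 and 2.58. The OVA list alone had a peak on Smad2 from 76242214 to 76261193, which joined blocks of 19 bp and 74 bp across an intron. Its fold enrichment of 11.3 came with a log10 p of -3.03, and 160 OVA peaks shared exactly this deposited fold enrichment.

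Smad3, the receptor SMAD that binds DNA directly and drives many matrix genes, had the longest covered stretch of the 10 genes. Its peaks took up 3392 exonic bp in OVA lungs and 3452 in PBS lungs, most of it in the 3' UTR. The peak chr9:63646766-63648115, at the very end of the gene, had fold enrichments of 13 and 8.86. The peak chr9:63648503-63652516, in 2 blocks, had 13.7 and 11. Both had the same ends in the lists. At the transcript start, the 5' UTR peak that ended at 63757994 had fold enrichments of 4.02 in OVA lungs and 3.3 in PBS lungs, and the ratios of the 3 Smad3 pairs were 1.47, 1.25 and 1.22. A ratio above 1 was found for 59.6% of all pairs and for 17 of the 26 pairs of the 10 genes. Each of the Smad3 ratios lay between the 5th and 95th percentile of all pairs, 0.425 and 2.36.

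Smad4 encodes the common partner of the receptor SMADs of both the TGF-beta and the BMP branch. Its values were near the list medians, and each group had the higher value in 1 of its 2 pairs. The 3' UTR peak chr18:73640085-73640386 had a fold enrichment of 4.25 in OVA lungs and 5.47 in PBS lungs. The 5' UTR peak, chr18:73675936-73678133 in OVA lungs, joined 2 exons and had 6.21 and 5.47.

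The inhibitory SMADs had their highest fold enrichments in the 5' UTR, and that of Smad7 was the highest of the 10 genes in each list. Smad7, which blocks the type I receptor and recruits ubiquitin ligases to it, had a 5' UTR peak at chr18:75368785-75369475 in OVA lungs. Its fold enrichment was 162 in OVA lungs, rank 14 of 27292. The PBS peak, chr18:75368725-75369445, had 141, rank 5 of 26102, and the log10 p were -1090 and -1750. The ratio of 1.15 was close to the median of all pairs, so this very high enrichment was a feature of both groups. A neighbouring 5' UTR peak that ended at 75368008 had only 4.22 and 3.56. In the 3' UTR of Smad7, the peak that began at 75393869 had 8.5 and 6.7, and the last peak, chr18:75395575-75395785 in OVA lungs, had 3.44 and 3.09. A peak at chr18:75286753-75286964 was assigned to Smad7 at -80565 bp but called on Dym, a gene needed for the Golgi apparatus in skeletal growth, and its ratio of 0.668 (fold enrichments of 3.65 and 5.46) was the lowest among the 26 pairs.

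**Figure D2:**
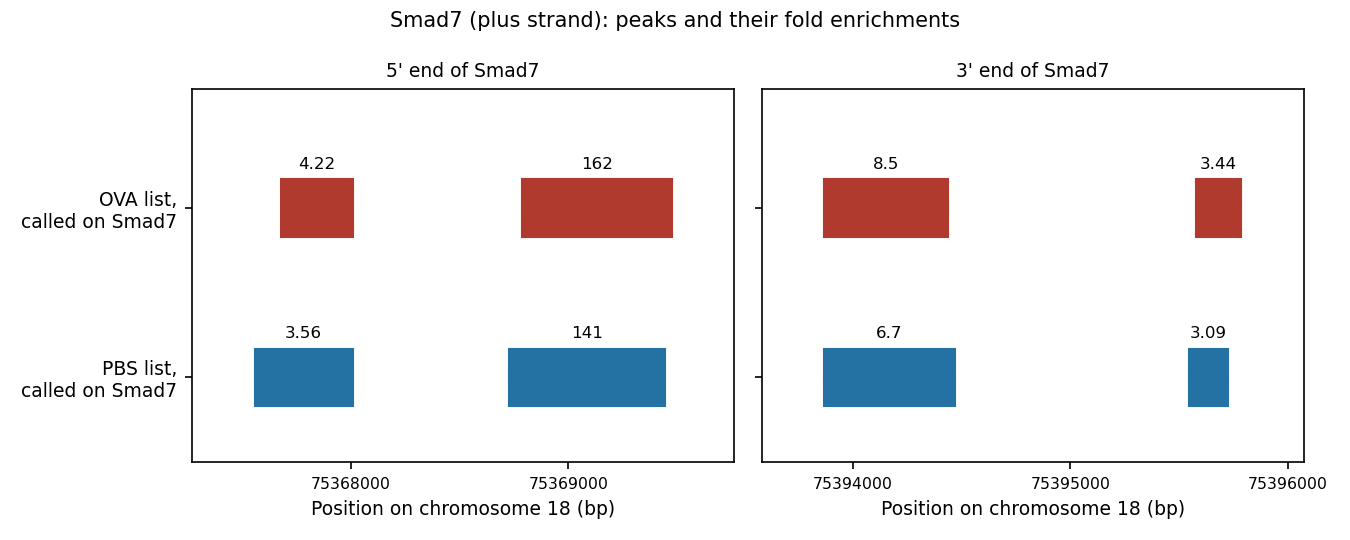
Peaks at both ends of Smad7 on chromosome 18 (horizontal axes, position in bp on GRCm38) in the OVA and the PBS list. Boxes are peaks drawn to scale and numbers are fold enrichments. Each of the 4 peaks has a partner in the other list, with 162 and 141 for the right-hand 5' UTR peak.

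Smad6, the inhibitor that acts chiefly on the BMP branch, had its highest fold enrichment at the very start of the transcript. The peak chr9:64021459-64022059 had the same ends in both lists, with fold enrichments of 23.4 in OVA lungs and 25.8 in PBS lungs. A neighbouring 5' UTR peak, chr9:64020471-64021071 in OVA lungs, had 10.1 and 11.6. The 3' UTR peak, chr9:63953315-63953705 in OVA lungs, had 3.58 and 4.48 and was assigned to the lincRNA Gm36033 although it was called on Smad6. The ratios of the 3 Smad6 pairs were 0.907, 0.871 and 0.799, all within 1.5 times.

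Peaks that reached a transcript start on the minus strand allowed the RNA sequence at that start to be shown, from the RefSeq promoter table of GRCm38.p6. The sequences below are DNA letters in the direction of transcription, at most 30 bases each, with matches to the common m6A sequence pattern in capitals. The pattern was taken as A or G, again A or G, then AC, then A, C or T. They are shown because a 5' UTR peak of each of these genes reached the start in OVA lungs, and those of Smad3 and Smad6 also in PBS lungs. Tgfb3, whose peaks also reached its start, was not matched in the promoter table.
Tgfb2, bases 21 to 50 of the transcript, chr1:186705940-186705969: ttgctcggagcagagctgctgAAACTgccg
Smad3, bases 11 to 40, chr9:63757955-63757984: AAACAgctaccccgtgcggAAACCcAAACT
Smad6, bases 1 to 30, chr9:64022030-64022059: AGACTggcatatgatgggaggcagccaatg
Smad3 had 3 matches in its first 50 transcribed bases, and Tgfb2 and Smad6 had 1 each. Such a match was found in 44.6% of 32851 windows of the same length at RefSeq gene starts, so a match is common. The narrower pattern GGAC, followed by A, C or T, was found in 15.4% of the windows and in none of these 3. A match describes the sequence and is not a mapped m6A site.

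The other genes of the pathway were taken from a list of 61 genes. Of these, 56 had a peak in each list, the same 56 in both, and Acvr1c, Ltbp4, Dcn, Bmp7 and Chrd had none in either. A peak called on the gene itself was found for 55 of the 61 in each list (90.2%), against the 52% and 50.5% of all protein-coding genes. That background was not limited to genes expressed in lung, so the higher share is not read as a feature of the pathway. Of 108 pairs of peaks, 9 had a ratio of at least 2 in favour of the OVA list and 3 in favour of the PBS list, against 7.63% and 6.8% of all pairs. Among the 9, 4 were called on genes of the other ligands and their traps and 3 were taken for receptor genes by either rule. Of those 3, the Acvr1b peak was called on Acvr1b but assigned to AU021063. Both Acvr2b peaks were assigned to Acvr2b, and 1 of them was called on its neighbour Xylb. No ratio reached 4.

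The highest fold enrichments among these genes differed between the lists. In OVA lungs they belonged to the bone morphogenetic protein Bmp2 with 46.5, the activin subunit Inhba with 41.8 and the pseudoreceptor Bambi with 35.4. In PBS lungs they belonged to Nrros, which holds latent TGF-beta on myeloid cells, with 28.4, and to Bmp4 and the BMP antagonist Grem1 with 27.1 each. The Bmp2 peak of the OVA list, chr2:133554748-133561840, was paired with a PBS peak of 13.6, chr2:133560973-133561810, a ratio of 3.42. The Inhba peak of the OVA list, chr13:16014503-16027392, spanned 3 separate PBS peaks and had a ratio of 3.4 to the PBS peak with the largest overlap, which had 12.3. Another of the 3 had 18.8, and their log10 p of -3.58, -5.34 and -5.57 were far weaker than the -192 of the OVA peak. As at the 5' end of Tgfb3, both OVA peaks spanned a longer stretch than their PBS partners. The reverse held for Nrros, whose PBS peak, chr16:32142784-32144962, spanned 2 separate OVA peaks with fold enrichments of 22 and 12.7. Bambi had 26.3 in PBS lungs, Bmp4 had 19 in OVA lungs, and Grem1 had 15.4 there. The Grem1 peak had far weaker evidence than the Bmp4 peak. Its log10 p was -11.3 in PBS lungs and -29.6 in OVA lungs, against -3050 and -1850 for Bmp4. Acvr1b, a type I receptor for activins, had the most peaks, with 5 in each list, and 5 genes followed with 4 in each by the same rule of assigned or called peaks. They were Bmp2, the microfibril gene Fbn1, the ubiquitin ligase Smurf1, the SMAD corepressor Skil and the phosphatase Ppm1a. Of the Fbn1 peaks, 3 in each list were called on Fbn1 and the other was called on Cep152.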

How the data were processed

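Reads of 6 IP and 6 input libraries were cleaned (FASTP), mapped (HISAT2) and passed to peak calling (exomePeak) and annotation (ChIPseeker) by the authors. Versions, and the way in which the 3 mice of a group were pooled, are not given in the sources used here. Each deposited fold enrichment is a ratio between IP and input that the authors' caller computed. Each deposited score was read as a log10 p or log10 FDR from the column names and values: the weakest p scores were -1.3 and -1.31, near the log10 of 0.05, and finite FDR scores ended at -321, near the smallest number that double precision holds. Infinite scores were read as underflow. Other deposited columns give widths, exonic blocks and distances to a transcript start. Coordinates were read as counting from 1 on GRCm38. All 27 OVA and 28 PBS peaks called on the 10 genes lay inside the RefSeq position of that gene on GRCm38.p6. This bears on the build and cannot tell starts that count from 0 from starts that count from 1. A Smad3 peak began at 63646766 and its transcript in the deposited annotation at 63646767, so printed starts may lie a base too early.

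Peaks were paired by exonic block overlap of at least 1 bp, taking the largest overlap. Ratios set a value of each list side by side and have no error. Intervals are 95% Wilson intervals. Named are the 10 genes and, of 61 further pathway genes, the 3 of highest enrichment per list (FDR under 0.05), those with a peak in 1 list only, the 3 with the most peaks (5 tied genes are all named), and those with a ratio of at least 4. Acvr1c, Acvr2b, Ltbp4, Dcn, Bmp7 and Chrd were named after their values were seen, and the sequence pattern and the comparison of widths were chosen then too. Gene starts on chromosome 18 were left out of the sequence search. The members and lists were chosen with earlier results of these data known. Alternatives covered the gene by which a peak is taken, FDR and fold enrichment filters, overlap, ratio and scaling. Python 3.11.15, numpy 2.4.6, pandas 2.3.3, scipy 1.17.1 and matplotlib 3.10.9 were used, and the pairing was tested on simulated data with 0 of 827 pairs wrong.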

Additional observations from a re-analysis of the deposited data

How the results depend on the processing

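Of 54 values recomputed under alternatives for 14 results, 50 kept within their limits, which were 1.5 times for counts and the 95% interval for shares and medians. The other 4 moved. With identical start and end required, the 10 genes shared 7 of 30 OVA peaks, in place of 26, and 7 of 31 PBS peaks, in place of 28. Among pairs, identical ends were found for 26.9% of those of the 10 genes and for 12.5% of all. With a ratio of 1.5, 4 pairs in place of 2 were higher in the OVA list. In either direction, 22 of the 26 pairs were within 1.5 times, against 69.2% of all pairs. The share of all pairs higher in the OVA list at a ratio of 1.5 or 3 is not given here, so those counts have no direct background. With peaks assigned to protein-coding transcripts only, the share of OVA peaks in the 3' UTR was 31.6% in place of 50%, and over all peaks it was 51.8% in place of 52.7%. That filter goes by the assigned transcript and leaves out peaks called on several of the 10 genes, as described above. The count of 2 OVA-higher pairs was the same with each list scaled to the median of its matched peaks, an FDR under 0.05, a ratio of 3, and at least 50% of both peaks overlapping. The median fold enrichments kept within their limits, at 7.59 and 6.9 with only the peaks overlapping the other list and 6.21 and 6.29 with protein-coding transcripts only, where the order of OVA and PBS turned. No paired analysis was possible because the lists analysed here are pooled, 1 per group, and no test was made. For the same reason no mouse could be left out in turn. The lists give no depth, so weak peaks in a single list may reflect detection alone, which was not tested.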
